A study of Mus musculus with 12 samples.

Results

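The proteasome subunit genes of the mouse are the rows of the table whose symbol joins Psma, Psmb, Psmc or Psmd to a number, with the immunoproteasome genes Psmb8, Psmb9 and Psmb10 set aside. This rule took 36 of the 47480 symbols, and it used no expression value. Psma and Psmb genes, 16 in number, encode the barrel-shaped core of the proteasome. Psmc and Psmd genes, 20 in number, encode the regulatory particle that caps it, together with chaperones that help to assemble its base.

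The proteasome degrades proteins that carry a chain of ubiquitin. Alpha subunits form the gated outer rings of the core and beta subunits the inner rings, of which Psmb6, Psmb7 and Psmb5 cut protein chains. In the regulatory particle, the ATPases of the Psmc family unfold the substrate and feed it into the core, while the lid holds Psmd14, the enzyme that removes the ubiquitin chain. In cells exposed to interferon, Psmb8, Psmb9 and Psmb10 replace Psmb5, Psmb6 and Psmb7 in newly built cores, which makes the immunoproteasome. When proteasome capacity is short, the transcription factor Nfe2l1 is known to raise most subunit genes together.

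RNA of the trigeminal nerve was sequenced in 12 mouse samples. The 6 samples called normal nerve were Nf1 flox/flox and PostnCre-, so they carried the floxed Nf1 alleles without the recombinase. The 6 samples called plexiform neurofibroma, a benign tumour of the nerve sheath, were Nf1 flox/flox and PostnCre+. Postn-driven Cre acts in cells with periostin promoter activity and their descendants, and the other cells of the nerve keep their Nf1 alleles. No treatment, age, sex or litter was given in the labels, nor whether samples came from separate animals, so p-values measure the spread between these samples, which may be technical. Nf1, the targeted gene, was at 69.6 to 93.1 CPM (counts scaled to library size) in tumours with a median of 86.6, and at 85.5 to 173 CPM in normal nerve with a median of 141. The groups overlapped because normal nerve 2 and normal nerve 6 were as low as the tumours, and the fall of the whole-gene count was 0.65 on the log2 scale (SE 0.16, edgeR adjusted p = 0.018).

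Libraries held 14160025 to 19989351 estimated counts, of which the 36 genes took 0.368% to 0.446%. A multidimensional scaling used the genes that differed most between libraries. Normal nerve 6 stood apart on its first axis and normal nerve 2 on its second, so the counts that lead the results are also given without both. Markers of central nervous system glia summed to 1028 CPM in normal nerve 6, the highest of any library, against at most 576 CPM in the tumours. Of the marker lists, 5 of 10 Schwann cell genes, 5 of 8 fibroblast genes and 3 of 10 macrophage genes were called higher in tumours, and 1 macrophage and 1 of 7 endothelial genes lower. The counts higher were 8, 6 and 7 with DESeq2 and 9, 6 and 8 with limma-voom. With a library left out they ran from 4 to 8, 3 to 6 and 1 to 7. Over all genes edgeR called 10% higher and 8.63% lower, and DESeq2 12.9% and limma-voom 16.6% higher. Skeletal muscle genes summed to 5.54 to 428 CPM in normal nerve and 6.29 to 1786 CPM in tumours, and 0 of 6 tested were called by edgeR. Of 12 sensory neuron genes edgeR called 0 and 0 passed an unadjusted p under 0.05, while limma-voom called 3 lower and edgeR without normal nerve 6 called 5 lower. Over all genes 35.2% passed an unadjusted p under 0.05 in either direction. Lower over all genes were 15.7% by limma-voom and 14.2% by edgeR without normal nerve 6. The summed level of the sensory neuron genes ran from 8171 to 15694 CPM in normal nerve and from 9984 to 13097 CPM in tumours, so the samples held neuronal RNA as well as nerve sheath RNA. In such bulk samples, fewer cells of a type and less RNA per cell cannot be told apart.

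The promoters of Psmb5 and Psmb6 are shown with those of Psmb8 and Psmb9, the genes whose products take their places, because the balance within these pairs is among the results. Each sequence runs 5′ to 3′ from 250 bases before to 50 bases after the RefSeq start on GRCm38.p6. Psmb5 lies at chr14:54617946-54618245 on the minus strand, Psmb6 at chr11:70525107-70525406 on the plus strand, Psmb8 at chr17:34197945-34198244 on the plus strand and Psmb9 at chr17:34187281-34187580 on the minus strand. Capitals mark TGACNNNGC in Psmb5 and Psmb6, the core of the antioxidant response element that Nfe2l1 and Nfe2l2 recognise, TTCNNNGAA in Psmb8, the core of the interferon-gamma activated site, and CCAAT in Psmb9, the box bound by NF-Y, which lies on the opposite strand there and so reads ATTGG. TTCNNNGAA reads the same on both strands.
Psmb5: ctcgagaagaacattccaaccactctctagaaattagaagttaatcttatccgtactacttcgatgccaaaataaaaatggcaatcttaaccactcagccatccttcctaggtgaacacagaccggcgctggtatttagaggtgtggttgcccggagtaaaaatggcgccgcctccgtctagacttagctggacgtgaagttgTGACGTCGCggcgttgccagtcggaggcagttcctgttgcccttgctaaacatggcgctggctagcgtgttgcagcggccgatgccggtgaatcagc
Psmb6: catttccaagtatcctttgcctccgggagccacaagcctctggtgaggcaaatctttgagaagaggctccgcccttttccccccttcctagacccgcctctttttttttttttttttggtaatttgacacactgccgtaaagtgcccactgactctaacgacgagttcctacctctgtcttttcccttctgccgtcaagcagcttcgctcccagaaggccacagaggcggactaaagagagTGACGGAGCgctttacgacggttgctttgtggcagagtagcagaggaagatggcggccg
Psmb8: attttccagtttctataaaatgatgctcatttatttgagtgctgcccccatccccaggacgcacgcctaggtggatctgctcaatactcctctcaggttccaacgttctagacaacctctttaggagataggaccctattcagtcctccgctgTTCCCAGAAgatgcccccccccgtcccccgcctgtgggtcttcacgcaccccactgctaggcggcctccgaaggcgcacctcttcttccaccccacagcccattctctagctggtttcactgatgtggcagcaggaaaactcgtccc
Psmb9: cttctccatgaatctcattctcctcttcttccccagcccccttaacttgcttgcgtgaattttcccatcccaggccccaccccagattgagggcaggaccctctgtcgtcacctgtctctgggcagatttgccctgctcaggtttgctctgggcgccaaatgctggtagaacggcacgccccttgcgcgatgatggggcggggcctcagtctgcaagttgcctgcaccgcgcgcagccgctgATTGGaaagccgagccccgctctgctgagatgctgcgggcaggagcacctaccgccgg
In each of these windows only the capitalised motif was found among the 4 that were searched on both strands, so no motif overlapped another there. RefSeq windows were matched for 29 of the 36 members. None was matched for Psmb2, Psmd7, Psmd3, Psmb7, Psma8, Psmb1 or Psmc3. The motif counts therefore leave out Psmb2 and Psmd7, the members that edgeR called below. Of the 29 genes 5 held TGACNNNGC, or 17.2%, against 13.99% of all 27025 genes with a window. CCAAT stood in 12 of 29, or 41.4%, against 41.1% of all genes, with 7 of 12 core genes and 5 of 17 regulatory genes holding it. The core of the interferon-stimulated response element, GAAA and GAAA with 2 bases of any kind between them, stood in 3 of 29 members against 3.99% of all genes, and TTCNNNGAA in 1 of 29 against 9.55%. A match describes letters in the window and says nothing of binding in these samples.

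The subunit genes as a whole were close to level between the groups. Of the 36 genes, 35 had enough counts to be tested. Of these, 2 were called higher in plexiform neurofibroma at an edgeR adjusted p under 0.05, Psmb2 and Psmd7, where 10% of all 17236 tested genes were called higher. edgeR called 0 members lower, where 8.63% of all genes were called lower; at an unadjusted p under 0.05, 8 members were higher and 1, Psmd3, lower, where 35.2% of all genes passed in either direction. DESeq2 called 4 members higher and 1 lower, against 12.9% and 11.8% of all genes, and limma-voom 4 and 2, against 16.6% and 15.7%. Among the 4464 genes with a mean of at least 50 CPM, where most members lie, edgeR called 11.9% higher and 15.9% lower. The log2 fold changes of the 35 genes lay between -0.22 and 0.30 with a median of 0.04, and 33 of them lay within 0.25 of 0. Of all genes tested 53.9% lay within 0.25 of 0, and of those 4464 genes 60.1% did. The biological coefficient of variation between samples of a group had a median of 11.3% over the members, against 18.3% over all genes and 13% over genes of at least 50 CPM.

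**Figure D1:**
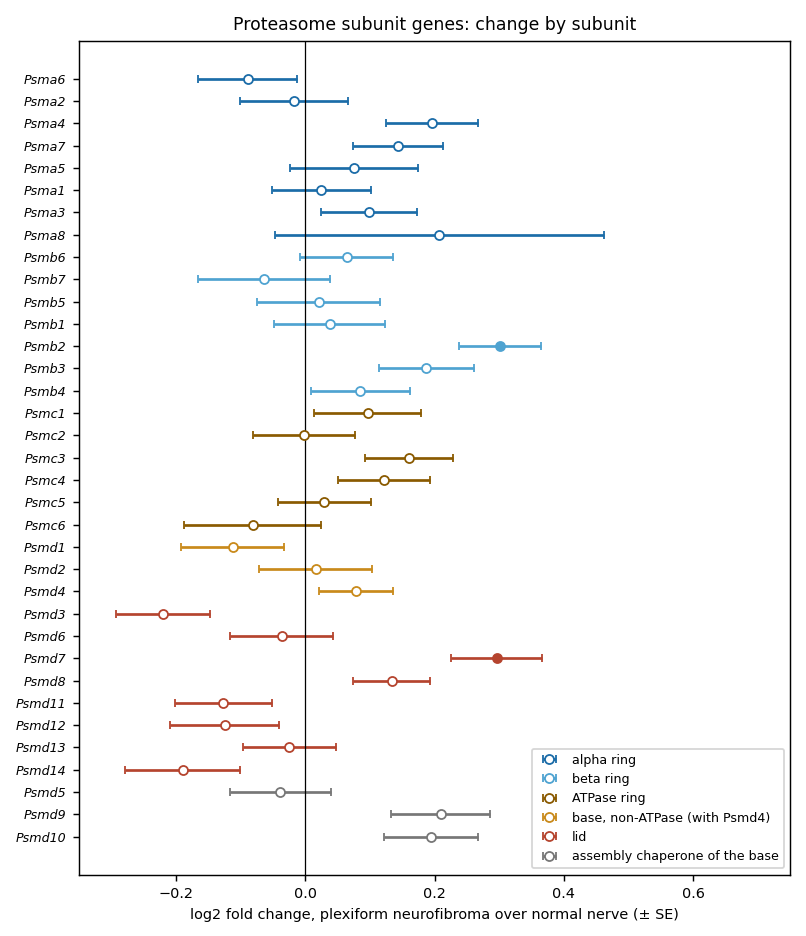
Log2 fold change of plexiform neurofibroma over normal nerve (x axis) for the 35 tested subunit genes (y axis), coloured by subcomplex, with bars of ± 1 SE from edgeR and 6 samples a group. Filled points, Psmb2 and Psmd7, were called at an adjusted p under 0.05, and open points were not; all points lie between -0.22 and 0.30.

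The summed level of all 36 members was 3987 ± 293 CPM over the normal nerves and 4088 ± 236 CPM over the tumours (SD, n = 6 each). The ranges, 3638 to 4348 CPM and 3719 to 4405 CPM, overlapped.

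The 34 members other than the tissue-restricted Psma8 and Psmb11 varied between libraries of the same group. Normal nerve 4 was above its own group's mean for 30 of the 34 members and normal nerve 2 for 29, while normal nerve 1 was above it for 3. Among the tumours, tumour 5 was above its group's mean for 33 members and tumour 3 for 29, while tumour 2 was above it for 4. The mean deviation of all 34 members was 0.12 on the log2 scale in normal nerve 4 and -0.13 in normal nerve 1, and 0.11 in tumour 5 and -0.14 in tumour 2. In normal nerve 1 and tumour 2 the few members above the mean were all regulatory genes. In normal nerve 5 the classes differed too, with 5 core and 14 regulatory members above the mean.

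**Figure D2:**
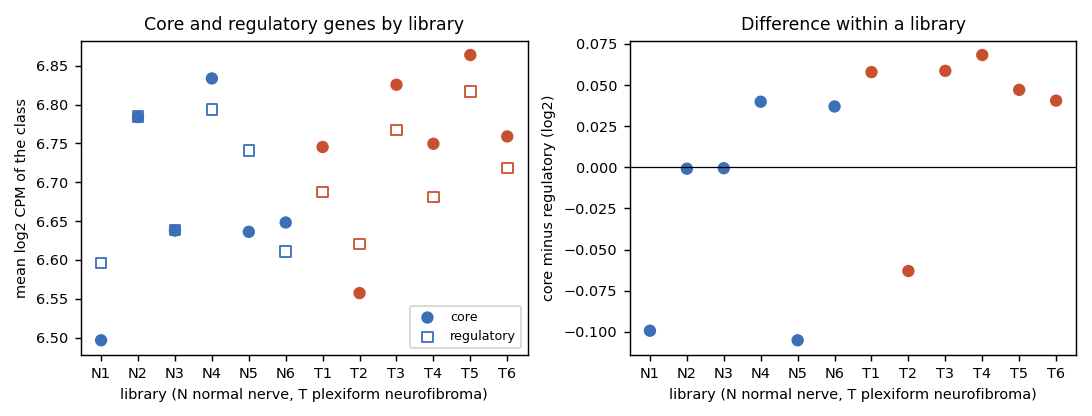
Left, mean log2 CPM of the core genes (filled circles) and the regulatory genes (open squares) in each library, N1 to N6 normal nerve and T1 to T6 plexiform neurofibroma. Right, core minus regulatory within each library, which runs from -0.105 to 0.040 in normal nerve and from -0.063 to 0.068 in plexiform neurofibroma.

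Core genes were set against regulatory genes by their counts and medians. Of 15 tested core genes 12 had a fold change above 0, where 8187 of all 17236 tested genes did. The median log2 fold change of the core genes was 0.075, which became -0.03 after the correction for transcript length described below. Of 20 regulatory genes 10 were above 0 and 10 below, with a median of 0.007, and of 0.004 after that correction. With principal transcript lengths the medians were -0.03 for core and -0.05 for regulatory genes, so the order of the classes depended on the lengths used. With a library left out they ran from 0.03 to 0.13 for core and from -0.04 to 0.04 for regulatory genes. The median of all genes tested was -0.02. Within a library, the mean log2 CPM of core genes minus that of regulatory genes was -0.021 ± 0.065 over the normal nerves and 0.035 ± 0.049 over the tumours (SD, n = 6 each). It was above 0 in 2 normal nerves and in all tumours but tumour 2, and the groups overlapped. Both classes had 1 member called higher, Psmb2 in the core and Psmd7 in the regulatory particle.

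Levels can be compared between members per length of the annotated principal transcript. In normal nerve the highest members were Psmb6 at 131 ± 13.6 CPM per kilobase (SD, n = 6), Psmc1 at 131 ± 14.2, Psmc3 at 128 ± 11.6, Psma7 at 126 ± 11.4 and Psmc5 at 122 ± 10.9 CPM per kilobase, which did not differ beyond their SDs. By principal transcript length, core and regulatory genes were thus both among the highest. The longest transcript has 1515 bases against 914 of the principal one for Psma7, and 966 against 798 for Psmb6. For Psmc1 both have 1591 bases, so the order depends on the lengths used. At the low end stood the base chaperones Psmd5 at 16.5 ± 1.83, Psmd10 at 10.8 ± 0.73 and Psmd9 at 7.59 ± 0.77 CPM per kilobase, which are not part of the finished particle. Psma8, a testis paralog of Psma7, was at 0.63 CPM per kilobase, and Psmb11, the catalytic subunit of the thymus core, had at most 0.512 CPM in any library and was not tested.

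Psmb2, a non-catalytic subunit of the beta ring at chr4:126677630-126709714 on the plus strand (mm10), rose in plexiform neurofibroma. Its level was 67.2, 77.7, 66.0, 77.0, 77.6 and 69.7 CPM in normal nerves 1 to 6, and 85.8, 83.8, 90.6, 93.7, 94.6 and 88.0 CPM in tumours 1 to 6. Every tumour was above every normal nerve, a pattern that 2 members showed, and 4.4% of all tested genes in that direction. The means were 72.5 ± 5.51 CPM and 89.4 ± 4.32 CPM (SD, n = 6 each), a log2 fold change of 0.30 (SE 0.063, edgeR adjusted p = 0.0078), and the gene was called in all 12 fits that left out a library.

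Psmd7, the lid subunit that pairs with Psmd14 but lacks its enzymatic activity, lies at chr8:107580381-107588464 on the minus strand and rose by a like amount. Its level was 125, 134, 103, 119, 125 and 121 CPM in normal nerves 1 to 6, and 139, 159.7, 149.6, 146, 159.8 and 139 CPM in tumours 1 to 6. Again no tumour was as low as a normal nerve. The means were 121 ± 10.2 CPM and 149 ± 9.49 CPM (SD, n = 6 each), a log2 fold change of 0.30 (SE 0.070, edgeR adjusted p = 0.013), and it too was called in all 12 fits that left out a library. No other protein-coding gene, and no long non-coding gene of the types searched, overlaps Psmb2 or Psmd7. Pseudogenes and small RNA genes were not searched. Both genes were also called with the score of sensory neuron markers as a covariate, with an adjusted p of 0.0025 for Psmb2 and 0.0072 for Psmd7 from edgeR; that fit called 5 members higher and 1 lower, against 12.7% and 12.1% of all genes. Both were called without normal nerves 2 and 6, where 4 members were higher and 1 lower against 12.9% and 13% of all genes.

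**Figure D3:**
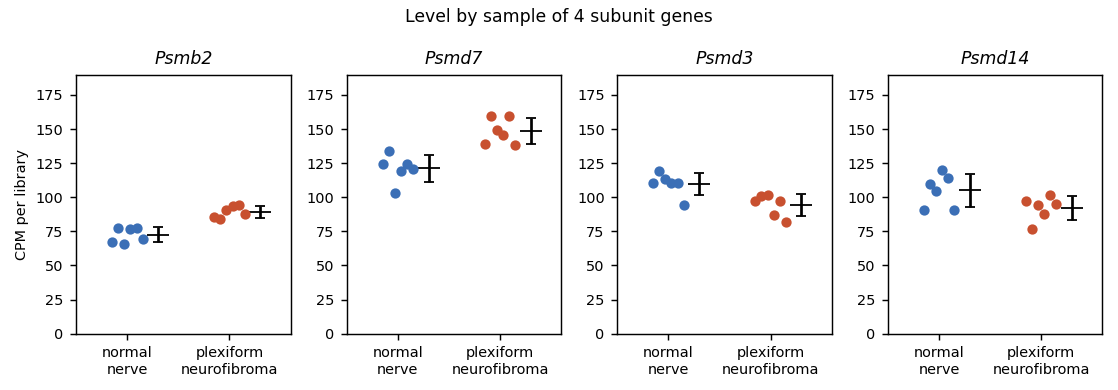
Level in CPM (y axis, from 0) of Psmb2, Psmd7, Psmd3 and Psmd14 in each of 6 normal nerve and 6 plexiform neurofibroma libraries (points), with the mean and SD of each group beside them. The groups do not overlap for Psmb2 and Psmd7, and they overlap for Psmd3 and Psmd14.

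The length of transcripts moved with the groups and bore on these values. The slope of a library's deviation over all genes against transcript length was positive in every normal nerve, 0.016 to 0.077 on the log2 scale per doubling of length, and negative in every tumour, -0.056 to -0.025. Core genes are shorter than regulatory genes, with a median longest transcript of 1239 against 1986 bases and of 3192 bases over all tested genes. Psmb2 has the shortest longest transcript of the members, 859 bases; by principal transcript Psmb3 (766 bases) and Psmb6 (798 bases) are shorter. After the trend was removed per library, the log2 fold change of Psmb2 was 0.15 (SE 0.066, edgeR adjusted p = 0.13) and that of Psmd7 was 0.20 (SE 0.068, edgeR adjusted p = 0.063), so neither call remained. That fit called 0 members higher and 1 lower, Psmd3, where 8.53% and 6.47% of all genes were called; at an unadjusted p under 0.05, Psmb2, Psmd7 and Psmd9 were higher in it, and DESeq2 without the correction called 4 higher. With principal transcript lengths Psmd7 was called higher (log2 fold change 0.22, edgeR adjusted p = 0.047) and Psmb2 was not (0.15, adjusted p = 0.13), so 1 member was higher and 1, Psmd3, lower, against 8.52% and 6.41% of all genes. Whether the trend came from the tissue or from the libraries cannot be told apart, since it followed the groups.

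**Figure D4:**
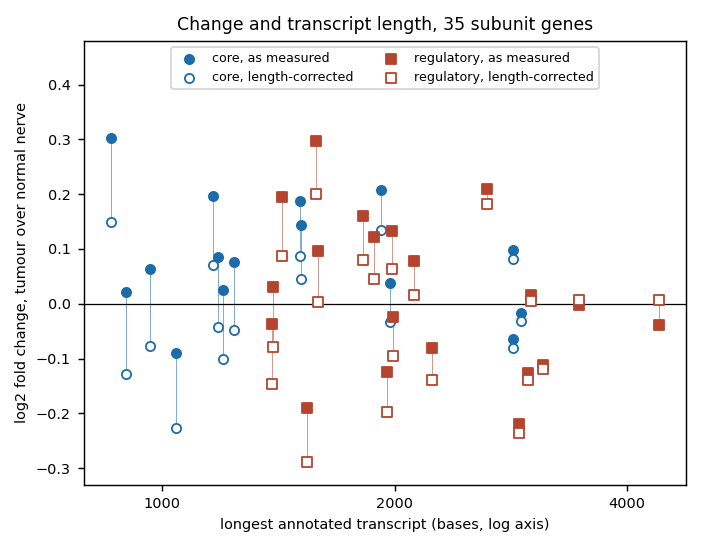
Log2 fold change of the 35 tested subunit genes (y axis) against the length of the longest annotated transcript (x axis, log scale), as measured (filled) and after the per-library length correction (open), with a line joining the values of a gene. The shift is widest among the short genes, where Psmb2 moves from 0.30 to 0.15.

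In the alpha ring, 0 of 8 genes passed the test by edgeR and 1, Psma4, had an unadjusted p under 0.05. Of all tested genes edgeR called 10% higher and 8.63% lower, and 35.2% had an unadjusted p under 0.05. DESeq2 and limma-voom called Psma4 higher, where they called 12.9% and 16.6% of all genes higher. Psma4 ran from 81.9 to 106 CPM in normal nerve with a median of 89.3, and from 99.5 to 112 CPM in tumours with a median of 104 (log2 fold change 0.20, SE 0.071, edgeR adjusted p = 0.068). Normal nerve 6 was the only normal nerve above the lowest tumour for this gene, and without it the adjusted p was 0.014. Psma7 was next at 115 ± 10.4 against 127 ± 7.19 CPM (adjusted p = 0.16). The other alpha genes, Psma6, Psma2, Psma5, Psma1, Psma3 and the barely detected Psma8, had log2 fold changes from -0.09 to 0.21 and adjusted p of 0.36 or more by edgeR.

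In the beta ring, the 3 catalytic subunits were level. Psmb5, the chymotrypsin-like subunit, had 76.2 ± 9.63 CPM in normal nerve and 77.3 ± 8.58 CPM in tumours (SD, n = 6 each). Psmb6, the caspase-like subunit, had 105 ± 10.8 and 109 ± 4.23 CPM, and Psmb7, the trypsin-like subunit, 115 ± 16.0 and 109.8 ± 12.8 CPM. Their log2 fold changes of 0.02, 0.06 and -0.06 were smaller than their SEs of 0.096, 0.072 and 0.103. Of the non-catalytic subunits beside Psmb2, Psmb3 had a median of 79.4 CPM and 81.5 ± 8.47 CPM on average in normal nerve, and 91.0 and 92.8 ± 4.77 CPM in tumours, with overlap (SD, n = 6 each; log2 fold change 0.19, SE 0.073, edgeR adjusted p = 0.087). Psmb3 was called higher by edgeR with the neuron covariate (adjusted p = 0.038), where 12.7% of all genes were. DESeq2 and limma-voom did not call it (adjusted p = 0.060 by each). Psmb1 and Psmb4 had fold changes of 0.04 and 0.09 on the log2 scale and did not pass.

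Among the 6 ATPase genes, 0 passed the test by edgeR, DESeq2 or limma-voom. Of all genes edgeR called 10% higher and 8.63% lower, DESeq2 12.9% and 11.8%, and limma-voom 16.6% and 15.7%. At an unadjusted p under 0.05 by edgeR 1 of the 6, Psmc3, passed, where 35.2% of all genes did. It was called higher with the neuron covariate (adjusted p = 0.030 by edgeR), where 12.7% of all genes were. Psmc3 ran from 187 to 233 CPM in normal nerve with a median of 204, and from 223 to 247 CPM in tumours with a median of 234, so that 2 normal nerves, 2 and 4, reached into the tumour range (log2 fold change 0.16, SE 0.068, edgeR adjusted p = 0.11). Psmc1, Psmc2, Psmc4, Psmc5 and Psmc6 had log2 fold changes from -0.08 to 0.12. Of the scaffolds of the base, Psmd2 had 330.2 ± 42.8 and 334 ± 18.3 CPM, and Psmd1 had 219 ± 16.8 and 203 ± 20.6 CPM (SD, n = 6 each). Psmd4, a ubiquitin receptor between base and lid, had 115 ± 7.04 and 122 ± 5.25 CPM.

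The lid was the subcomplex with the widest spread of fold changes. Of its 8 genes, Psmd7 and Psmd8 were above 0 and the other 6 below, with a median log2 fold change of -0.08 and of -0.14 after the length correction. Psmd3, a PCI-domain subunit at chr11:98682554-98695979 on the plus strand, ran from 94.5 to 119 CPM with a median of 111 in normal nerve and from 81.7 to 101 CPM with a median of 97.2 in tumours. Its groups overlapped through normal nerve 6, whose 94.5 CPM lay under the 110.2 CPM of the next normal nerve. Its log2 fold change of -0.22 (SE 0.073) missed the threshold with an edgeR adjusted p of 0.052, and it was called lower by DESeq2 (adjusted p = 0.022), by limma-voom (0.0095), with the neuron covariate (0.032), after the length correction (0.046) and without normal nerve 6 (0.012), a fit in which 4 members were higher and 1 lower against 14.6% and 14.2% of all genes. A non-coding transcript, Gm12356, overlaps it on the other strand, and whether counting used strand is not given in the sources used here.

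Psmd14, the deubiquitinating enzyme of the lid at chr2:61711694-61800376 on the plus strand, ran from 90.8 to 119.6 CPM with a median of 107 in normal nerve and from 76.7 to 102 CPM with a median of 94.5 in tumours (log2 fold change -0.19, SE 0.089, edgeR adjusted p = 0.15; limma-voom adjusted p = 0.042). Set beside its partner Psmd7, a pair chosen after the values were seen and given without a test, Psmd7 had 1.37, 1.22, 0.988, 0.996, 1.09 and 1.33 times the CPM of Psmd14 in normal nerves 1 to 6, and 1.43, 2.08, 1.59, 1.66, 1.57 and 1.46 times in tumours 1 to 6. No tumour ratio was as low as the highest normal nerve. The other lid genes were Psmd6, Psmd8, Psmd11, Psmd12 and Psmd13, whose log2 fold changes lay between -0.13 and 0.13 with edgeR adjusted p of 0.13 or more.

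Of the base chaperones, Psmd9 ran from 17.9 to 23.6 CPM with a median of 19.2 in normal nerve and from 21.4 to 24.7 CPM with a median of 22.3 in tumours (log2 fold change 0.21, SE 0.076, edgeR adjusted p = 0.071). Only normal nerve 6 reached into the tumour range, and without that library the adjusted p was 0.0093. It was also called higher by DESeq2 (adjusted p = 0.042), limma-voom (0.011) and edgeR with the neuron covariate (0.042). Psmd10, also known as gankyrin, ran from 14.4 to 17.2 CPM and from 16.3 to 19.6 CPM (log2 fold change 0.19, SE 0.072, edgeR adjusted p = 0.075). Psmd5 was level at 72.6 ± 8.03 and 70.7 ± 4.86 CPM (SD, n = 6 each). Of 6 listed assembly chaperones with other symbols (Psmg1, Psmg2, Psmg3, Psmg4, Pomp and Paaf1) 5 were tested. By edgeR 0 were called and 2 had an unadjusted p under 0.05, which 35.2% of all genes had in either direction. Over all genes edgeR called 10% higher and 8.63% lower. All 5 fold changes were above 0, where 8187 of all 17236 tested genes were. The median log2 fold change of the 5 was 0.16, and 0.10 after the length correction. The smallest p belonged to Psmg4 (5.02 ± 0.417 against 6.49 ± 1.14 CPM, adjusted p = 0.064 by edgeR, 0.044 by DESeq2 and 0.043 by limma-voom).

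Relative to the catalytic subunits whose places they take, all 3 immunoproteasome subunits had a higher mean log2 ratio in tumours. The ratios of Psmb8 and Psmb10 passed their test, and that of Psmb9 did not. Psmb10 rose from 20.2 ± 5.35 CPM in normal nerve to 34.5 ± 7.36 CPM in tumours (SD, n = 6 each), a log2 fold change of 0.77 (SE 0.17, edgeR adjusted p = 0.011) that was called in all 12 fits that left out a library. Psmb8 had a median of 8.91 CPM in normal nerve, with a range of 5.13 to 29.9, and of 22.5 CPM in tumours, with a range of 15.7 to 46.7 (log2 fold change 1.17, SE 0.42, edgeR adjusted p = 0.071; 0.018 by DESeq2 and 0.038 by limma-voom). Psmb9 had medians of 3.18 and 8.07 CPM (log2 fold change 0.94, SE 0.44, edgeR adjusted p = 0.14). For Psmb8 and Psmb9 normal nerve 3 was far above the other normal nerves, and without it their adjusted p were 0.0056 and 0.0069 by edgeR.

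The CPM of Psmb8 as a percentage of that of Psmb5 was 13.8%, 10.1%, 46.1%, 7.63%, 6.52% and 11.2% in normal nerves 1 to 6, and 35.4%, 68.3%, 18.1%, 27.8%, 20.99% and 37.5% in tumours 1 to 6. All 6 tumours lay above every normal nerve but the third, which also held for Psmb9 over Psmb6 and Psmb10 over Psmb7. The difference in mean log2 ratio of Psmb8 over Psmb5 was 1.33 and passed a two-sided exact permutation test over all splits of 6 against 6 (p = 0.026, adjusted over the 3 ratios 0.039; smallest possible p 0.0022). Psmb10 was at 18.0% ± 5.63 of Psmb7 in normal nerve and at 32.6% ± 12.0 in tumours (SD, n = 6 each), a log2 difference of 0.85 (exact permutation p = 0.0087, adjusted 0.026). Psmb9 was at 4.53% ± 4.21 of Psmb6 in normal nerve and at 8.25% ± 4.09 in tumours, a log2 difference of 1.04 that did not pass (exact permutation p = 0.052, adjusted 0.052). The call of Psmb8 over Psmb5 was lost, with adjusted exact p up to 0.081, when any library but normal nerve 3, tumour 3 or tumour 5 was left out. That of Psmb10 over Psmb7 was lost, up to 0.058, without normal nerve 4 or 5 or tumour 2, 4 or 6. Psmb9 over Psmb6 passed without normal nerve 3 (0.0043) or tumour 3 (0.032). These percentages are of CPM without a correction for length, so they compare libraries and not the genes of a pair. Of 12 interferon response genes edgeR called 7 higher in the same tumours (6 to 12 with a library left out), DESeq2 11 and limma-voom 8. Over all genes edgeR called 10% higher, DESeq2 12.9% and limma-voom 16.6%. Macrophage markers were called higher by edgeR for 3 of 10 (1 to 7 with a library left out). Genes of T and NK cells summed to at most 4.08 CPM in any library. The part of these 3 lists in the ratios was not tested.

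**Figure D5:**
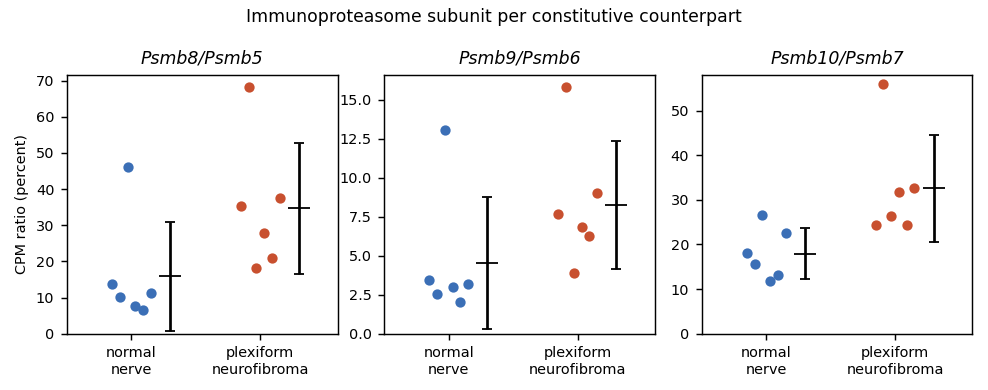
CPM of Psmb8, Psmb9 and Psmb10 as a percentage of the CPM of Psmb5, Psmb6 and Psmb7 (y axes, each from 0) in 6 normal nerve and 6 plexiform neurofibroma libraries (points), with the mean and SD of each group. Normal nerve 3 is at 46.1% and 13.1% in the first 2 panels and tumour 2 is the highest tumour in all 3, at 68.3%, 15.8% and 55.9%.

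Of 5 activators and inhibitors of the core, edgeR called 1 higher, Psme2, and 1 lower, Psme3. Over all genes it called 10% higher and 8.63% lower. Psme2, a subunit of the interferon-induced activator, rose from 32.6 ± 5.28 to 47.4 ± 4.84 CPM (SD, n = 6 each; log2 fold change 0.54, SE 0.11, edgeR adjusted p = 0.0064), and no tumour was as low as a normal nerve, which held for 4.4% of all tested genes. Its partner Psme1 had 22.4 ± 8.95 and 36.5 ± 8.45 CPM (log2 fold change 0.70, SE 0.24, edgeR adjusted p = 0.054; 0.017 by DESeq2 and 0.0052 by limma-voom). Psme3, the nuclear activator that works without ubiquitin, fell from 70.5 ± 2.92 to 56.7 ± 3.56 CPM (log2 fold change -0.31, SE 0.058, adjusted p = 0.0048), and no tumour was as high as a normal nerve, which held for 2.99% of all tested genes. These calls of Psme2 and Psme3 held in all 12 fits that left out a library and after the length correction, while Psme4 and the inhibitor Psmf1 were not called by edgeR or DESeq2; limma-voom called Psme4 lower (adjusted p = 0.030).

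Of 14 other subunits of the regulatory particle and factors that bind it, edgeR called 1 higher and 3 lower. Over all genes edgeR called 10% higher and 8.63% lower, and 11.9% and 15.9% among genes of at least 50 CPM. Of the 14 fold changes 13 were below 0, with a median of -0.17 on the log2 scale. Below 0 were 9049 of all 17236 tested genes, and 2642 of the 4464 genes with a mean of at least 50 CPM. The one higher was Sem1, a small lid subunit listed under its older symbol Shfm1, at 53.9 ± 4.34 and 67.1 ± 4.87 CPM (log2 fold change 0.32, SE 0.070, edgeR adjusted p = 0.010), with no overlap between the groups. Ubqln2, a shuttle that brings ubiquitinated proteins to the proteasome, fell from 109 ± 10.6 to 74.2 ± 7.32 CPM (log2 fold change -0.56, SE 0.082, adjusted p = 0.0021), also without overlap. The groups did not overlap for 4.4% of all tested genes in the higher direction and for 2.99% in the lower. Usp14, a deubiquitinase held by the base, and Zfand5, a zinc-finger protein that activates the proteasome, fell by 0.27 and 0.38 on the log2 scale with adjusted p of 0.048 and 0.039 by edgeR; after the length correction neither was called (0.097 and 0.12), and they were called in 2 and 4 of the 12 fits that left out a library. The count of 3 lower was 5 with DESeq2 and 10 with limma-voom, where 11.8% and 15.7% of all genes were lower. It ran from 1 to 7 with a library left out, the 7 being without normal nerve 6, where 14.2% of all genes were lower.

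Of 11 genes that control proteasome gene transcription, 1 was higher and 2 lower at an unadjusted p under 0.05 by edgeR. In either direction 35.2% of all genes passed so. DESeq2 called 1 higher and 2 lower, against 12.9% and 11.8% of all genes, and limma-voom 2 and 3, against 16.6% and 15.7%. At an adjusted p under 0.05 edgeR called 0 higher and 1 lower, against 10% and 8.63% of all genes. The one lower was Syvn1, a ubiquitin ligase of the endoplasmic reticulum, at 38.3 ± 1.57 CPM in normal nerve and 30.4 ± 3.80 CPM in tumours (SD, n = 6 each; log2 fold change -0.33, SE 0.081, adjusted p = 0.015). Nfe2l1 itself was at 491 ± 47.1 and 447 ± 35.01 CPM (log2 fold change -0.14, SE 0.081, edgeR adjusted p = 0.24), and limma-voom called it lower (adjusted p = 0.040). Nfe2l2 went the other way, at 51.3 ± 9.91 and 65.5 ± 6.95 CPM (log2 fold change 0.35, SE 0.12, edgeR adjusted p = 0.054). DESeq2 (adjusted p = 0.029) and limma-voom (0.017) called Nfe2l2 higher. After the length correction its edgeR adjusted p was 0.094.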

How the data were processed

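RNA was measured in 6 normal nerve and 6 plexiform neurofibroma samples of the mouse trigeminal nerve. Per the labels' protocols, polyA RNA was sequenced; these protocols mention both a stranded kit and a TruSeq kit, and which of them was used is uncertain. The submitters' processing notes name STAR 2.4.2a, Salmon 0.60, FastQC and DESeq2, and build mm10, with no role or order. The annotation and the strand setting of the counting were not given in the sources used here. What the authors deposited was a single table with the estimated counts of 47480 symbols in 12 samples, without normalization. Between 84.1% and 86.5% of values per library were whole within 0.001, and all were rounded before testing. Reads of near-identical genes can be shared out by such estimates; the 4 subunit pseudogenes in the table had at most 5 counts in any library.

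Symbols were looked up in GENCODE vM21 (GRCm38, the assembly of mm10), 45187 directly and 610 through older symbols, leaving 1683. Coordinates are 1-based. Counts were filtered with filterByExpr, which left 17236 genes, and tested in R 4.3.3 with edgeR 4.0.16 and its quasi-likelihood method (TMM, robust fit, no covariate, Benjamini-Hochberg over all tested genes, called at an adjusted p under 0.05). The script was tested on simulated data. CPM uses TMM-scaled library sizes. Ratios were compared on log2 CPM with a prior count of 2 by an exact permutation test. Alternatives were DESeq2 1.42.0, limma-voom (limma 3.58.1) with sample weights, other size factors and filters, covariates for sex-linked genes, sensory neurons and skeletal muscle, a per-library lowess correction for transcript length (span 0.3) and leaving out each library. Leaving out normal nerves 2 and 6 and the correction with principal transcripts were chosen after seeing the data, as were the 2 interferon motifs. The members and gene lists were chosen with earlier results of these data known. Named genes were every member, Nf1, Psmb8 to Psmb10, and of each list up to 3 called genes in order of p-value or the 1 with the smallest p. Psme1, Psme4, Psmf1, Usp14, Nfe2l1 and Nfe2l2 were named besides after their values were seen. Some genes that this rule takes are not reported here.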

Additional observations from a re-analysis of the deposited data

Results flagged for a closer look

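A sample was marked where its gap to the nearest sample of its group was beyond Dixon's 95% limit for the group's range, which chance exceeds in about 1 of 20 groups of 6; of 142 groups of values 19 were marked. Tumour 2 held 6 of these marks. It was the lowest tumour for Psma2 at 85.7 CPM (the others 105 to 112), Psma3 at 114 CPM (131 to 139), Psmc6 at 113 CPM (139 to 152) and Rps27a at 206 CPM (237 to 242). It was the highest for Psmb10 at 48.6 CPM (28.7 to 34.9) and for Psmb10 as a percentage of Psmb7 at 55.9% (24.4% to 32.6%). So the library with the lowest mean of the constitutive members among the tumours was also the highest for Psmb10.

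Normal nerve 3 held 5 marks, all of them high values. It had 29.9 CPM of Psmb8 (the other normal nerves 5.13 to 9.79), 12.7 CPM of Psmb9 (2.14 to 3.34), 46.1% for Psmb8 over Psmb5 (6.52% to 13.8%) and 13.1% for Psmb9 over Psmb6 (2.02% to 3.45%). Actn3, a skeletal muscle marker, was at 9.84 CPM there (0.465 to 2.99).

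Normal nerve 6 was the lowest normal nerve for Psmd3 at 94.5 CPM (110.2 to 119) and the highest for Psmd9 at 23.6 CPM (17.9 to 19.3) and for the microglia and macrophage receptor Cx3cr1 at 30.4 CPM (3.71 to 13.1). Normal nerve 2 was the highest for Psmd4 at 129 CPM (109.8 to 116). Tumour 4 was the lowest for Psme3 at 50.02 CPM (56.4 to 60.2), and tumour 1 the highest for Actn3 at 41.4 CPM (1.05 to 2.92). Tumour 6 was the highest for the interferon-induced genes Ifit1 at 69.6 CPM (37.6 to 40.6) and Irf7 at 16.1 CPM (8.03 to 10.2).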

How the results depend on the processing

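No paired analysis was possible because the labels give no litter, batch or other feature that matches a tumour with a normal nerve. Of 35 tested members, 19 kept their sign in all 12 fits that left out a library and all 12 other settings, and 16 changed it in at least 1; the largest log2 fold change among these 16 was 0.14. The cause of the changes that follow was not tested. Members called higher numbered 4 with DESeq2, 4 with limma-voom, 5 with the neuron covariate, 4 without normal nerves 2 and 6, 0 after the length correction and 1 with principal transcripts, and 2 to 4 with a library left out. Core members called higher numbered 2 under each of DESeq2, limma-voom, the neuron covariate and the fit without both nerves, 0 under each length correction, and 1 to 2 with a library left out. Regulatory members called higher numbered 2, 2, 3 and 2 in those first 4 settings, 0 after the length correction, and 1 to 2 with a library left out. Members called lower, all regulatory, numbered 2 with limma-voom and 1 with each of DESeq2, the CPM filter, the neuron covariate, both length corrections and the fit without both nerves, and 0 to 1 with a library left out. Over all genes limma-voom called 2864 higher and 2701 lower, 902 were lower with no filter and 2286 without both nerves, and leaving out a library gave 1092 to 2544 higher and 801 to 2487 lower.

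The length correction turned the log2 fold change of Psma5 to -0.047, Psma1 to -0.10, Psmb6 to -0.077, Psmb5 to -0.13, Psmb1 to -0.033, Psmb4 to -0.042, Psmc5 to -0.079, Psmc2 to 0.00596 and Psmd5 to 0.0076. With principal transcripts Psma7 was -0.00102, Psma5 was -0.039, Psma1 was -0.093, Psmb6 was -0.093, Psmb5 was -0.13, Psmb1 was -0.0299, Psmb4 was -0.036, Psmc5 was -0.075, Psmd4 was -0.026 and Psmd5 was 0.018. Psma2 was 0.0089 without both nerves and Psmd2 -0.0078 with limma-voom; Psmc2 was 0.0067 with no filter, 0.00052 with the sex-linked covariate and 0.019 with the neuron covariate. Leaving out a library gave log2 fold changes of -0.061 to 0.034 for Psma2, -0.00796 to 0.072 for Psma1, -0.11 to 0.0102 for Psmb7, -0.018 to 0.095 for Psmb5, -0.011 to 0.086 for Psmb1, -0.034 to 0.045 for Psmc2, -0.0061 to 0.066 for Psmc5, -0.038 to 0.069 for Psmd2, -0.082 to 0.0043 for Psmd6, -0.065 to 0.0089 for Psmd13, -0.068 to 0.025 for Psmd5 and -0.46 to 2.75 for Actn3. The log2 ratio differences ran from 1.11 to 1.71 for Psmb8 over Psmb5, from 0.82 to 1.40 for Psmb9 over Psmb6 and from 0.68 to 0.97 for Psmb10 over Psmb7; without normal nerve 3 all 3 reached an adjusted exact p of 0.0043, without tumour 3 Psmb9 over Psmb6 reached 0.032, and the lost calls had adjusted exact p of up to 0.081 and 0.058 for Psmb8 and Psmb10.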

Other observations

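Around the proteasome, Rps27a, which encodes ubiquitin fused to a ribosomal protein, went from 180.2 ± 37.2 CPM in normal nerve to 233 ± 13.7 CPM in tumours (SD, n = 6 each; log2 fold change 0.37, edgeR adjusted p = 0.041). It was called in 2 of 12 fits that left out a library, and it was not called after the length correction (0.12).

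Of 10 cofactors of Vcp, the ATPase that hands ubiquitinated proteins to the proteasome, edgeR called 2 higher and 0 lower. Over all genes it called 10% higher and 8.63% lower. Ubxn1 went from 76.1 ± 7.23 to 90.4 ± 6.04 CPM (edgeR adjusted p = 0.031). Derl1 went from 88.9 ± 6.41 to 102 ± 6.87 CPM (edgeR adjusted p = 0.048, and 0.064 after the length correction). Ubxn1 and Derl1 were called in 5 and 2 of 12 fits that left out a library. The count of 0 lower was also found at an unadjusted p under 0.05 and by DESeq2. By limma-voom 2 were lower, against 15.7% of all genes. The median log2 fold change of the list was -0.06. Of 10 subunits of the COP9 signalosome, a complex built like the lid, Cops9, listed under its older symbol Myeov2, was called higher (51.5 ± 5.99 to 63.0 ± 5.38 CPM, adjusted p = 0.033, 0.25 after the length correction, called in 6 of 12 fits that left out a library), with a median of 0.04 over the list. Of 8 subunits of the chaperonin TRiC 0 were called by edgeR, DESeq2 or limma-voom and 0 had an unadjusted p under 0.05 by edgeR, the smallest p being that of Cct5 (209 ± 17.8 and 225 ± 10.99 CPM, adjusted p = 0.27, 0.24 by DESeq2), with a median of -0.03. At an unadjusted p under 0.05, 35.2% of all genes passed by edgeR in either direction. DESeq2 called 12.9% of all genes higher and 11.8% lower, and limma-voom 16.6% and 15.7%.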
